A study of Ovis aries with 8 samples.

Results

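The mitochondrial carrier family (SLC25) was followed in liver RNA from 8 preweaning Assaf lambs. Its members are the rows of the deposited expression table whose symbol is SLC25A and a number. Of 45 such rows, 4 were set aside by the selection rule and were not analysed here, which left 41 of the 27729 genes listed. The 4 RES lambs (RES 1 to RES 4) had their milk replacer restricted to 120 mL per kg and weighed 7.5 to 8.7 kg at slaughter. The 4 ADL lambs (ADL 1 to ADL 4) drank it ad libitum, at 192 mL per kg, and weighed 10.4 to 12.45 kg. Age at slaughter was 33 to 36 days in both groups, all lambs were of the Assaf breed and milk-fed, and each library came from 1 lamb. Levels are given in TPM, the authors' reads per gene divided by gene length and scaled to the same total in every lamb.

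SLC25 carriers are small proteins that mostly sit in the inner membrane of mitochondria and swap metabolites, nucleotides, cofactors and phosphate between the cytosol and the matrix. ATP made inside leaves through ADP/ATP translocases, phosphate for its synthesis enters through the phosphate carrier, and carriers of dicarboxylates, glutamate and other amino acids connect the matrix with gluconeogenesis and nitrogen disposal in the cytosol. In hepatocytes, much of amino acid breakdown and glucose production is split between these compartments, so its intermediates cross this membrane.

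The libraries held 15134039 to 17879918 reads in genes, of which 13552 to 34384 fell in the 41 carriers. On the first principal component of all tested genes (38.1% of the variance), 1 library stood apart from its label. The RES lambs lay between -20.6 and -14.8 and ADL 1, ADL 2 and ADL 4 between 34.3 and 46.2, while ADL 3 lay at -46.3. On the second component (22.2%), RES 4 lay at -22.8, apart from RES 1, RES 2 and RES 3 at 24.1 to 28.9. The ADL lambs lay there between -36.5 (ADL 3) and 10.3 (ADL 1). Because of ADL 3, calls and the carriers with full statistics are given for all 8 lambs and without ADL 3. This choice was made with that lamb's position on the first component known. Some other carriers are given for all 8 lambs only. Hepatocyte markers summed to 91209 to 169248 TPM in RES and 92875 to 130412 TPM in ADL. Within these sums, ALB was the lowest of its group in RES 4 (28707 TPM) and ADL 3 (31098.5 TPM). FGB was the highest of its group in the same lambs (39820 and 53575 TPM). APOA1 and TTR, like ALB, were lowest of their group in both. TF and AHSG were lowest in RES 4 but not in ADL 3, where TF was the highest of its group (9435 TPM). APOB was lowest in neither lamb. Each of the 6 skeletal muscle markers was below 1 TPM in every lamb. The 5 cholangiocyte markers summed to 8.74 to 20.3 TPM in RES and 20.8 to 47.9 TPM in ADL, so that the sums did not overlap. ADL 3 had 42.4 TPM of them. Taken singly, KRT19 was lower in every RES lamb than in every ADL lamb, as were 1.68% of all tested genes. The groups overlapped in KRT7, EPCAM, SOX9 and CFTR. The part of bile duct cells in the results was not tested. The 6 endothelial markers summed to 226 to 314 TPM in RES, against 329 to 414 TPM in ADL 1, ADL 2 and ADL 4, with 214 TPM in ADL 3. Of them LYVE1, a marker of sinusoidal endothelium, fell by 0.99 on the log2 scale without ADL 3 (adjusted p = 0.04904, limma; 0.0687 after rescaling by median of ratios), and the other 5 did not pass. In whole tissue, fewer cells of a type and less RNA per cell cannot be told apart.

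Expression within the family was uneven. The 41 carriers had a mean level over the 8 lambs of at least 100 TPM in 6 members, of 10 to 100 TPM in 16, of 1 to 10 TPM in 15 and of less than 1 TPM in 4. The most abundant 6 (SLC25A4, SLC25A6, SLC25A3, SLC25A30, SLC25A47 and SLC25A10) made up 61.8 to 74.4% of the family's summed TPM in a lamb. Levels of different genes depend on the gene length listed in the table, which ran from 516 nt for SLC25A37 to 9471 nt for SLC25A27 and was under 1000 nt in 8 members. The genes lie on 18 chromosomes, with at most 5 on one. SLC25A29 and SLC25A47 lie 11023 bases apart on chromosome 18, SLC25A5 and SLC25A43 lie 9771 bases apart on X, and SLC25A23 and SLC25A41 lie 2417 bases apart on chromosome 5. The deposited table gives these coordinates, and no source used here names their build.

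RES livers held less carrier RNA than 3 of the 4 ADL livers. The family's summed level was 1707, 1934, 1792 and 1305 TPM in RES 1 to RES 4, against 2940, 2473 and 2378 TPM in ADL 1, 2 and 4, with 997 TPM in ADL 3. Each RES lamb was thus below those 3 ADL lambs and above ADL 3. The endothelial marker sum had the same order of RES, ADL 3 and the other ADL lambs, but its single markers did not. In LYVE1 and PECAM1, ADL 3 lay within the RES range. In STAB1, STAB2, CDH5 and CLEC4G, the other ADL lambs overlapped with RES. The part of endothelial cells in the carrier results was not tested. TPM add to the same total in each lamb, so these are shares of the measured RNA. Mitochondrially encoded transcripts, measured in the same libraries, took 5.14 to 7.83% of TPM in RES, 6.37 to 11.4% in ADL 1, ADL 2 and ADL 4 and 4.39% in ADL 3.

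With all 8 lambs, limma on log2(TPM + 0.5) called 0 of the 37 carriers that had a mean level of at least 1 TPM (Benjamini-Hochberg adjusted p of 0.05 over all genes; 0.00724% of all tested genes were called). An unadjusted p below 0.05 was reached by 5 members, 13.5% of the 37, against 9.70% of all tested genes. Of these, 2 were higher in RES (all tested genes 5.53%) and 3 lower (4.17%). The limma-voom fit on recovered reads also called 0 and put 6 members below an unadjusted 0.05. Log2 fold changes, RES over ADL, ran from -1.24 (SLC25A34) to 0.86 (SLC25A10), with 25 of 37 below 0, where 56.5% of all tested genes were. Their median was -0.18, beside -0.04 over all tested genes. In the authors' deposited table, whose comparison is of the same lambs, SLC25A34 was the 1 member with an adjusted p below 0.05 among 39 that have one (2.30% of all genes there). An unadjusted p below 0.05 stands there for 10 of the 41 carriers, 6 lower (4.92% of all genes) and 4 higher (5.10%).

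Without ADL 3, 8 of the 37 carriers fell in RES and 0 rose, where 7.59% of all tested genes fell and 2.42% rose. The 8 were SLC25A4, SLC25A5, SLC25A3, SLC25A30, SLC25A34, SLC25A29, SLC25A45 and SLC25A46, with falls of 0.49 to 1.59 on the log2 scale. An unadjusted p below 0.05 was reached by 16 of the 37 (29.6% of all tested genes), and 28 were below 0 (63.9%). The median of the 37 members was -0.29, beside -0.13 for all tested genes. Rescaling the remaining lambs by median of ratios, which centres the typical gene, moved the median of all genes to 0.01 and that of the members to -0.15. All genes called then split into 616 higher and 534 lower, beside 334 higher and 1048 lower before rescaling. After rescaling, 5 of the 8 carriers passed (SLC25A34, SLC25A45, SLC25A3, SLC25A30 and SLC25A5) and 0 were higher. Of all genes, 8.33% were then called, 4.46% higher and 3.87% lower. The limma-voom fit without ADL 3 called 8 carriers lower and 0 higher, 7 of them shared with the fit on TPM, where 9.87% of all genes were called, 2.53% higher and 7.34% lower. In 10 members every RES value lay below those of ADL 1, ADL 2 and ADL 4 (21.7% of all tested genes did so), and in SLC25A21 every RES value lay above them (6.16%).

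ADL 3 itself was low in most carriers, as it was in most of all tested genes. Its value was below those of the other ADL lambs in 24 of the 37 tested members (64.86%) and above them in 0. Over all tested genes these shares were 58.4% and 14.4%. ADL 3 was the lowest of the 8 lambs in 18 members (48.65%), near the 42.6% of all tested genes. It lay within the RES range in 12 members (32.43%), beside 38.3% of all tested genes. All 8 carriers that fell without this lamb were lower in ADL 3 than in its 3 group mates, and 5 of them were lower there than in any RES lamb. Those 8 were picked by a fit that left ADL 3 out, which favours such genes, so this is no separate result. The median coefficient of variation over the 37 members was 16.6% in RES and 30.5% in ADL, beside 15.1% and 25.5% over all tested genes. In ADL 1, ADL 2 and ADL 4 alone it was 22.4% for the members and 17.03% for all tested genes. It was smaller in RES than in ADL in 28 of the 37 members, against 75% of all tested genes. With ADL 3 left out the count was 21 of the 37, and the share of all tested genes was not computed for those lambs.

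**Figure D1:**
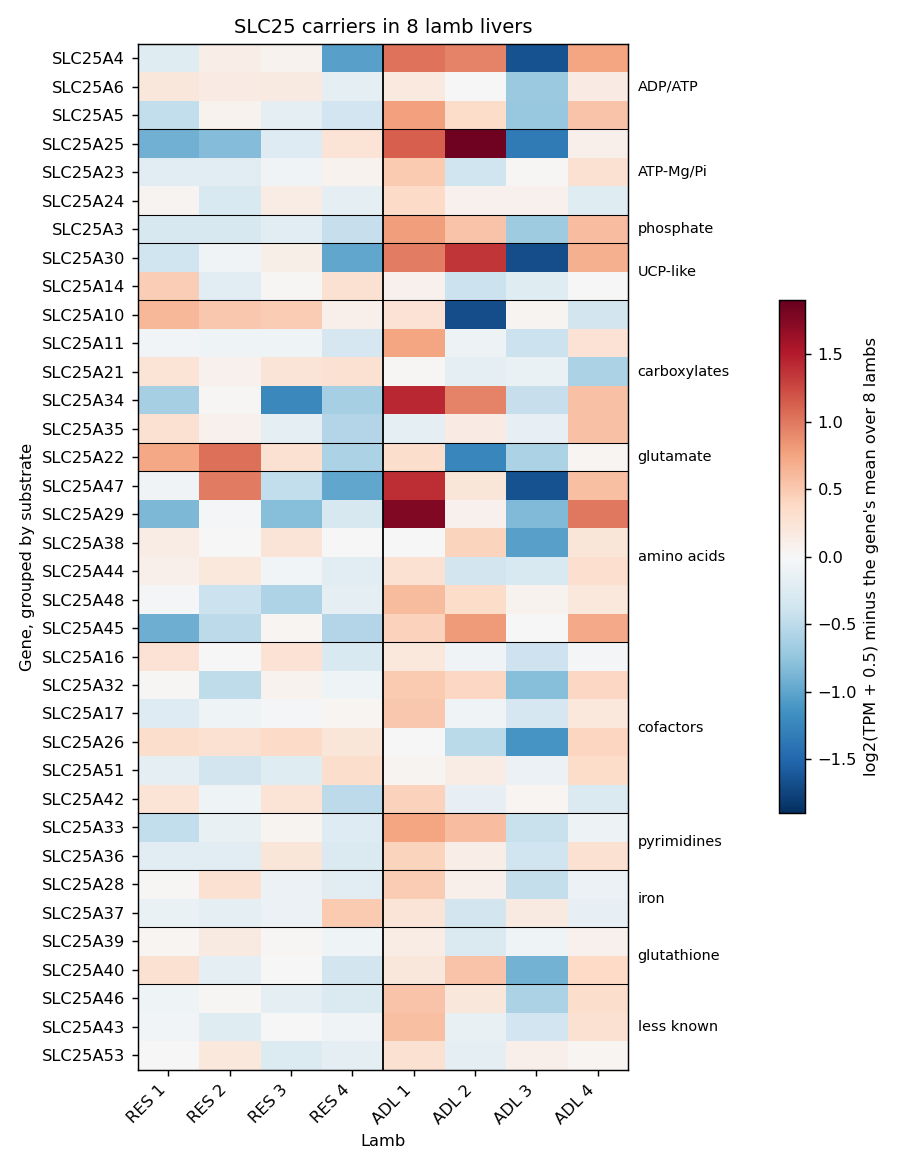
Each row is 1 of 36 tested carriers and each column a lamb; colour gives log2(TPM + 0.5) minus the gene's mean over the 8 lambs, red above and blue below it, with carriers grouped by substrate. Many rows are red in ADL 1, ADL 2 and ADL 4 and blue in ADL 3, while SLC25A10 and SLC25A22 are red in RES 1, RES 2 and RES 3.

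Adenine nucleotide carriers included the 2 most abundant members, and 2 of the 3 expressed translocases fell without ADL 3. SLC25A4, the ADP/ATP translocase best known from heart and muscle, lies on chromosome 26, 14203982 to 14207679, plus strand, 4 exons. Its levels were 346, 446, 425 and 199 TPM in RES 1 to RES 4, against 832, 787 and 688 TPM in ADL 1, 2 and 4, with 129 TPM in ADL 3. RES lambs all lay below the first 3 ADL lambs and above ADL 3. The gene had 354 ± 112 TPM in RES and 609 ± 326 TPM in ADL (SD, n = 4 each), and the log2 fold change over 8 lambs was -0.54 with SE 0.56 (adjusted p = 0.794, limma). This value was -0.29 without ADL 1, -0.31 without ADL 2 and -0.29 without RES 4. Without ADL 3 it fell by 1.18 on the log2 scale with SE 0.28 (adjusted p = 0.0375, limma), a call lost after rescaling (limma adjusted p = 0.05003).

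SLC25A5, the translocase typical of dividing cells, lies on chromosome X, 109124179 to 109126844, minus strand, 4 exons. The lambs had 50.6, 72.9, 61.7 and 54.04 TPM in RES 1 to RES 4, against 121, 89.5 and 102 TPM in ADL 1, 2 and 4, with 42.1 TPM in ADL 3. As for SLC25A4, RES lay below those 3 ADL lambs and above ADL 3. The 8-lamb log2 fold change was -0.48 with SE 0.30 (adjusted p = 0.6704, limma), and -0.29 without ADL 1. With ADL 3 left out it fell by 0.80 on the log2 scale with SE 0.17 (adjusted p = 0.0268, limma) and passed after rescaling too (limma adjusted p = 0.0374). An ADP/ATP translocase 2-like gene (LOC101109981) at 9.13 to 23.1 TPM may share reads with it, which was not tested.

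SLC25A6, the third expressed translocase, lies on chromosome X, 609312 to 642091, minus strand, 4 exons. Levels were 324, 311, 316 and 249 TPM in RES 1 to RES 4, against 316, 277 and 313 TPM in ADL 1, 2 and 4, with 172 TPM in ADL 3. Here the groups overlapped, and 7 of the lambs lay within 249 to 324 TPM. The log2 fold change was 0.19 with SE 0.22 (adjusted p = 0.821, limma) over 8 lambs and -0.01 with SE 0.14 (adjusted p = 0.959, limma) without ADL 3, a change of sign, and 0.13 there after rescaling. The germ-cell translocase SLC25A31 had 8 reads in all lambs together.

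The proportions of the translocases differed between lambs. Of the summed TPM of SLC25A4, SLC25A5 and SLC25A6, SLC25A4 made up 39.6 to 53.7% in RES, against 62.4 to 68.3% in ADL 1, ADL 2 and ADL 4 and 37.7% in ADL 3. SLC25A6 made up 37.5 to 49.6% in RES, against 23.99 to 28.4% in ADL 1, ADL 2 and ADL 4 and 50.04% in ADL 3. SLC25A5 made up 7.01 to 10.8% in RES, against 7.76 to 9.495% in ADL 1, ADL 2 and ADL 4 and 12.3% in ADL 3. These shares do not depend on how whole libraries are scaled, and in RES the share of SLC25A4 lay below that of ADL 1, ADL 2 and ADL 4, with ADL 3 lower still. They are descriptions and carry no test.

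**Figure D2:**
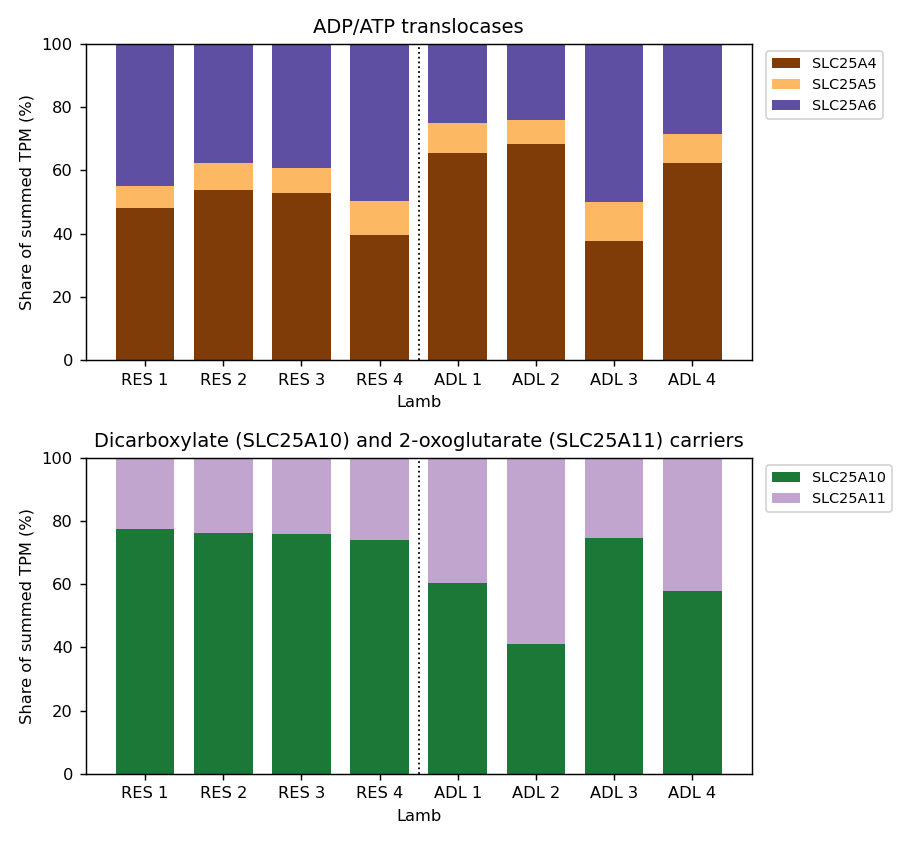
Stacked bars give, per lamb, the share of the summed TPM (percent) of the ADP/ATP translocases (top) and of the dicarboxylate and 2-oxoglutarate carriers (bottom), RES lambs left of the dotted line and ADL lambs right of it. SLC25A4 holds 39.6 to 53.7% in RES and 62.4 to 68.3% in ADL 1, ADL 2 and ADL 4, and SLC25A10 holds 74.1 to 77.4% in RES and 74.6% in ADL 3.

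The mitochondrial phosphate carrier SLC25A3, which brings in the phosphate for ATP synthesis and also carries copper, lies on chromosome 3, 167593718 to 167599761, plus strand, 8 exons. Values for it were 207, 206, 223 and 189 TPM in RES 1 to RES 4, against 446, 371 and 385 TPM in ADL 1, 2 and 4, with 159.5 TPM in ADL 3. The RES values were close together and lay between ADL 3 and the other ADL lambs. It had 206 ± 13.8 TPM in RES and 340.3 ± 125 TPM in ADL (SD, n = 4 each), with a log2 fold change of -0.62 with SE 0.30 (adjusted p = 0.545, limma) over 8 lambs. It fell, without ADL 3, by 0.95 on the log2 scale with SE 0.13 (adjusted p = 0.00768, limma), and it passed after rescaling (limma adjusted p = 0.00622).

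SLC25A30, a relative of the uncoupling proteins first described in kidney, lies on chromosome 10, 15876175 to 15911423, plus strand, 12 exons. Its values were 82.01, 101, 114 and 53.1 TPM in RES 1 to RES 4, against 209, 274 and 170.3 TPM in ADL 1, 2 and 4, with 32.8 TPM in ADL 3. RES again lay between ADL 3 and the rest of ADL, over a wide range. Its log2 fold change was -0.67 with SE 0.58 (adjusted p = 0.752, limma) over 8 lambs, -0.32 without ADL 2 and -0.45 without ADL 1 or RES 4. Without ADL 3 it fell by 1.34 on the log2 scale with SE 0.28 (adjusted p = 0.0268, limma) and passed after rescaling (limma adjusted p = 0.0401). A kidney mitochondrial carrier 1-like gene (LOC106991116) had 0.252 to 1.95 TPM and 51 reads over all lambs. SLC25A14, another relative, had 2.44 to 4.22 TPM in RES and 2.07 to 3.099 TPM in ADL, with overlapping groups and a log2 fold change of 0.28 with SE 0.20 (adjusted p = 0.709, limma).

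Carriers of ATP-Mg for phosphate, which load or empty the matrix of adenine nucleotides when calcium rises, were led by SLC25A25 with 17.8, 18.9, 28.5 and 40.8 TPM in RES 1 to RES 4, against 74.9, 123 and 36.2 TPM in ADL 1, 2 and 4, with 13.004 TPM in ADL 3. ADL 2 held the most and ADL 3 the least, and RES 4 lay above ADL 4. The gene did not pass with 8 lambs, at -0.86 with SE 0.60 (adjusted p = 0.696, limma), or without ADL 3, at -1.45 with SE 0.43 (adjusted p = 0.0681, limma). The related SLC25A23 and SLC25A24 had 3.81 to 4.71 TPM in RES and 3.32 to 6.49 TPM in ADL for the first, and 3.15 to 4.41 TPM in RES and 3.33 to 5.24 TPM in ADL for the second, with overlapping groups. SLC25A41 was represented by 12 reads in all lambs together.

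Of 5 tested carriers of di- and oxocarboxylates, 1 fell without ADL 3 and 0 rose. SLC25A34, an orphan carrier placed here by sequence, lies on chromosome 12, 49811739 to 49817969, minus strand, 5 exons. Levels of this gene were 2.86, 4.75, 1.71 and 2.83 TPM in RES 1 to RES 4, against 13.5, 9.42 and 7.1004 TPM in ADL 1, 2 and 4, with 3.31 TPM in ADL 3. All RES values were below those of ADL 1, ADL 2 and ADL 4, and ADL 3 lay within RES. Over 8 lambs the log2 fold change was -1.24 with SE 0.39 (adjusted p = 0.364, limma), the lowest of the family. Leaving out ADL 3, it fell by 1.59 on the log2 scale with SE 0.31 (adjusted p = 0.0224, limma), passing after rescaling (limma adjusted p = 0.0347). The authors' deposited table lists -0.9995 (SE 0.30, adjusted p = 0.0411) for it.

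SLC25A10, which exchanges malate or succinate for phosphate, lies on chromosome 11, 50216510 to 50222384, minus strand, 10 exons. It stood at 142, 131, 128 and 97.6 TPM in RES 1 to RES 4, against 110.4, 28.1 and 71.5 TPM in ADL 1, 2 and 4, with 94.6 TPM in ADL 3. RES 4 overlapped with ADL 1, and ADL 2 stood lowest. The gene averaged 125 ± 19.01 TPM in RES and 76.2 ± 35.8 TPM in ADL (SD, n = 4 each). It did not pass with 8 lambs, at 0.86 with SE 0.38 (adjusted p = 0.504, limma), or without ADL 3, at 1.02 with SE 0.40 (adjusted p = 0.137, limma). Rescaling without ADL 3 put it at 1.17 with SE 0.36 (adjusted p = 0.0857, limma). Without ADL 2 the log2 fold change was 0.44.

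SLC25A11, the 2-oxoglutarate carrier of the malate-aspartate shuttle, had 41.5, 40.6, 40.4 and 34.2 TPM in RES 1 to RES 4, against 72.7, 40.2 and 51.9 TPM in ADL 1, 2 and 4, with 32.2 TPM in ADL 3. The groups overlapped. Its log2 fold change was -0.27 with SE 0.24 (adjusted p = 0.756, limma). Of the summed TPM of both carriers, SLC25A10 held 74.1 to 77.4% in RES, against 41.2 to 60.3% in ADL 1, ADL 2 and ADL 4 and 74.6% in ADL 3. RES lambs spanned a narrow band in this share, all above ADL 1, ADL 2 and ADL 4, and ADL 3 lay inside that band.

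SLC25A21, which carries 2-oxoadipate from lysine and tryptophan breakdown, lies on chromosome 18, 45711348 to 46262253, minus strand, 11 exons. Measured values were 8.51, 7.47, 8.397 and 8.68 TPM in RES 1 to RES 4, against 7.09, 6.13 and 4.43 TPM in ADL 1, 2 and 4, with 6.38 TPM in ADL 3. Every RES value was above every ADL value, ADL 3 included, in this 1 tested member (2.80% of all tested genes). It averaged 8.26 ± 0.545 TPM in RES and 6.01 ± 1.13 TPM in ADL (SD, n = 4 each), and did not pass with 8 lambs, at 0.45 with SE 0.17 (adjusted p = 0.453, limma), or without ADL 3, at 0.48 with SE 0.16 (adjusted p = 0.0976, limma). Rescaling without ADL 3 put it at 0.62 with SE 0.15 and an adjusted p at the threshold (0.0504, limma). With limma-voom the adjusted p was 0.0895. SLC25A35, a second orphan, had 0.672 to 1.61 TPM in RES and 1.03 to 2.04 TPM in ADL, with a log2 fold change of -0.19.

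SLC25A22, which brings glutamate into the matrix together with a proton, had 58.8, 73.3, 42.9 and 22.98 TPM in RES 1 to RES 4, against 44.2, 14.5 and 35.99 TPM in ADL 1, 2 and 4, with 22.9 TPM in ADL 3. The groups overlapped widely, at 0.74 with SE 0.41 (adjusted p = 0.618, limma) over 8 lambs and 0.66 with SE 0.47 (adjusted p = 0.378, limma) without ADL 3. The calcium-regulated aspartate-glutamate carrier SLC25A12 stayed below the filter, with 0.544 to 0.784 TPM in RES and 0.705 to 1.61 TPM in ADL.

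**Figure D3:**
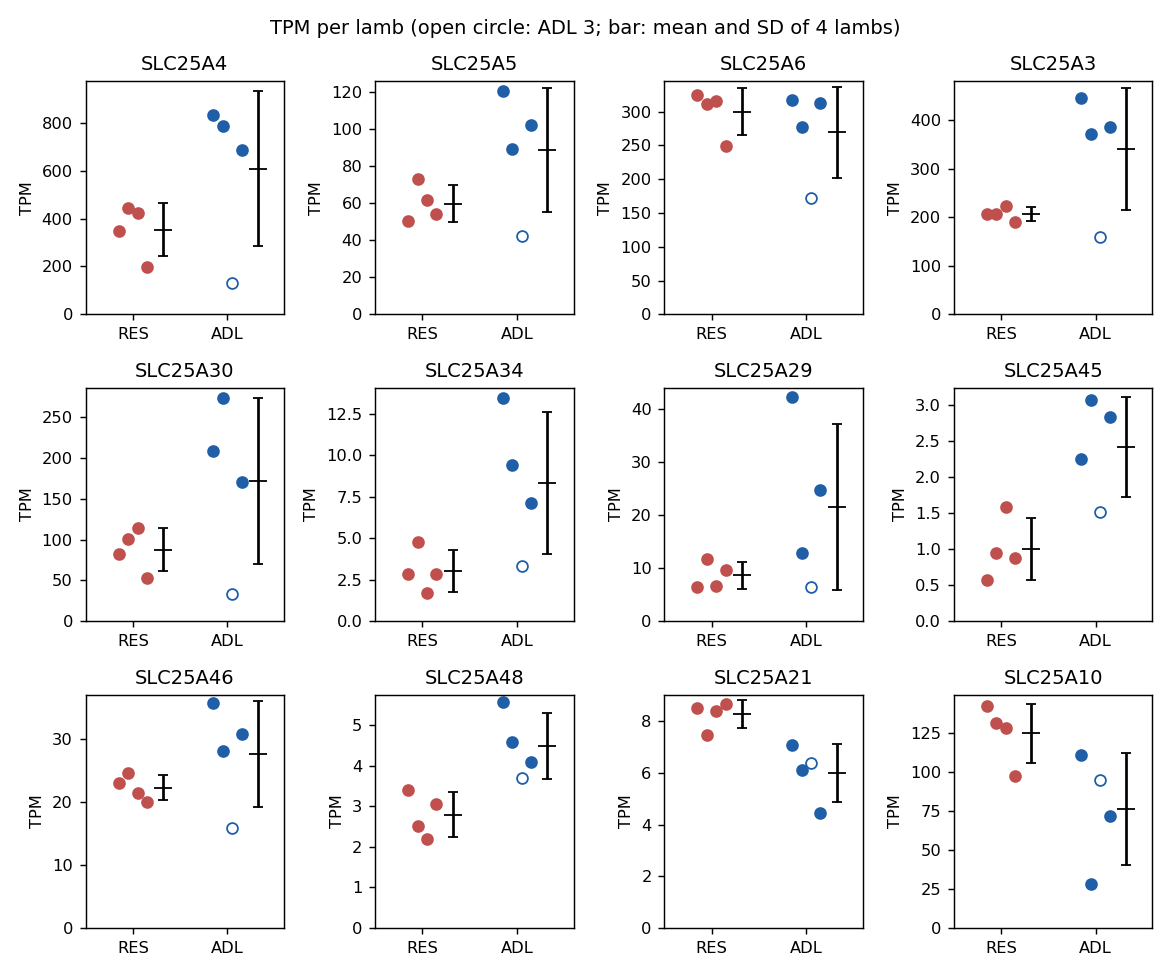
Each panel plots TPM per lamb for 1 carrier, with RES left and ADL right, ADL 3 as an open circle and the mean with its SD over 4 lambs as a bar. ADL 3 sits below all RES lambs in SLC25A4, SLC25A5, SLC25A6, SLC25A3, SLC25A30, SLC25A46, SLC25A10 and SLC25A21, while the groups do not overlap in SLC25A48 and SLC25A21.

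Among carriers of other amino acids, placed here partly by sequence, 2 of 6 tested members fell without ADL 3. SLC25A29, which carries arginine, lysine and other basic amino acids, lies on chromosome 18, 63782320 to 63795946, minus strand, 5 exons. Values were 6.49, 11.7, 6.68 and 9.67 TPM in RES 1 to RES 4, against 42.2, 12.9 and 24.7 TPM in ADL 1, 2 and 4, with 6.502 TPM in ADL 3. RES 2 came close to ADL 2, and ADL 3 lay with the lowest RES lambs. The log2 fold change was -1.0033 with SE 0.48 (adjusted p = 0.555, limma) over 8 lambs and -0.58 without ADL 1. Without ADL 3 it fell by 1.45 on the log2 scale with SE 0.38 (adjusted p = 0.0484, limma), a call lost after rescaling (limma adjusted p = 0.0636) and with limma-voom (adjusted p = 0.0507).

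SLC25A45, at the low end of the family with 166 reads over all lambs, lies on chromosome 21, 42773026 to 42778278, minus strand, 7 exons. The levels were 0.567, 0.949, 1.59 and 0.882 TPM in RES 1 to RES 4, against 2.25, 3.07 and 2.84 TPM in ADL 1, 2 and 4, with 1.52 TPM in ADL 3. RES 3 overlapped with ADL 3 only. The log2 fold change was -0.97 with SE 0.26 (adjusted p = 0.294, limma) with 8 lambs, the smallest p of the 37 members. With ADL 3 left out it fell by 1.14 on the log2 scale with SE 0.25 (adjusted p = 0.0305, limma), also after rescaling (limma adjusted p = 0.0476).

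SLC25A48, reported as a carrier of choline, lies on chromosome 5, 44553122 to 44601243, plus strand, 9 exons. It was measured at 3.41, 2.52, 2.19 and 3.07 TPM in RES 1 to RES 4, against 5.58, 4.59 and 4.097 TPM in ADL 1, 2 and 4, with 3.699 TPM in ADL 3. Every RES value was below every ADL value, ADL 3 included, in this 1 tested member (1.68% of all tested genes). It averaged 2.79 ± 0.547 TPM in RES and 4.49 ± 0.813 TPM in ADL (SD, n = 4 each), and did not pass with 8 lambs, at -0.60 with SE 0.19 (adjusted p = 0.361, limma). Without ADL 3 it was at -0.68 with SE 0.18 and did not pass on TPM (adjusted p = 0.0503, limma). It did not pass after rescaling either (limma adjusted p = 0.0936), but did with limma-voom on reads (adjusted p = 0.0458).

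SLC25A47, a carrier found mainly in liver in mouse, lies next to SLC25A29 on chromosome 18, 63806970 to 63815207, plus strand, 5 exons. Its expression was 83.9, 175, 63.6 and 44.3 TPM in RES 1 to RES 4, against 235, 103 and 132 TPM in ADL 1, 2 and 4, with 27.7 TPM in ADL 3. Values varied widely within both groups, with RES 2 above ADL 2 and ADL 4. The log2 fold change was -0.28 with SE 0.62 (adjusted p = 0.915, limma) over 8 lambs. Without ADL 3 it was -0.87 with SE 0.46 (adjusted p = 0.245, limma). SLC25A38, which imports glycine for haem synthesis, had 11.3 to 13.5 TPM in RES and 5.29 to 15.4 TPM in ADL. The branched-chain amino acid carrier SLC25A44 had 9.06 to 12.2 TPM in RES and 8.205 to 13.3 TPM in ADL. A pseudogene of it (LOC101113438) was listed at 7.18 to 11.4 TPM, and reads may be shared.

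None of the 6 cofactor carriers described here passed in either fit. SLC25A26, which brings S-adenosylmethionine into the matrix, had 11.1, 10.8, 11.4 and 10.4 TPM in RES 1 to RES 4, against 8.75, 6.02 and 11.8 TPM in ADL 1, 2 and 4, with 3.76 TPM in ADL 3. RES lambs were close together, with a coefficient of variation of 4.04% against 45.9% in ADL, and ADL 4 lay above them all. The log2 fold change was 0.61 with SE 0.29 (adjusted p = 0.545, limma).

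SLC25A32, a carrier of FAD that is also linked to folate, had 18.3, 12.7, 18.7 and 16.9 TPM in RES 1 to RES 4, against 25.4, 23.8 and 23.8 TPM in ADL 1, 2 and 4, with 10.04 TPM in ADL 3. All RES values lay below ADL 1, ADL 2 and ADL 4, but it did not pass without ADL 3, at -0.55 with SE 0.15 (adjusted p = 0.0567, limma). For the NAD carrier SLC25A51 the levels were 6.22 to 10.3 TPM in RES and 7.47 to 10.5 TPM in ADL. For the coenzyme A carrier SLC25A42 they were 4.83 to 8.57 TPM in RES and 5.73 to 9.75 TPM in ADL. SLC25A16, a relative of SLC25A42, had 21.8 to 32.4 TPM in RES and 20.1 to 30.8 TPM in ADL. The peroxisomal SLC25A17 had 8.97 to 11.0003 TPM in RES and 8.54 to 15.5 TPM in ADL. The groups overlapped in these 4 carriers.

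Carriers of pyrimidine nucleotides, iron and glutathione did not pass either. The pyrimidine carriers SLC25A33 and SLC25A36 had log2 fold changes of -0.40 with SE 0.27 (adjusted p = 0.681, limma) and -0.24 with SE 0.21 (adjusted p = 0.752, limma), with 8.45 to 12.4 TPM in RES, against 11.1 to 20.3 TPM in ADL 1, 2 and 4, with 8.71 TPM in ADL 3 for SLC25A33. Mitoferrin-2 (SLC25A28), the iron importer of most tissues, had 53.7 to 75.95 TPM in RES and 45.4 to 87.2 TPM in ADL. Mitoferrin-1 (SLC25A37), that of erythroid cells, had 10.7 to 17.3 TPM in RES and 9.37 to 14.5 TPM in ADL. The highest SLC25A37 value was in RES 4, and the 4 erythroid markers matched summed to at most 1.08 TPM in RES and 1.35 TPM in ADL.

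The glutathione carrier SLC25A39 had 56.2 to 67.1 TPM in RES and 49.1 to 65.96 TPM in ADL, and a log2 fold change of 0.07 with SE 0.15 (adjusted p = 0.913, limma). It has 2 listed pseudogenes, at up to 7.02 and 24.5 TPM, and its counts may hold reads of theirs. The related SLC25A40 had 11.2 to 17.8 TPM in RES, against 16.97 to 21.4 TPM in ADL 1, 2 and 4, with 7.55 TPM in ADL 3, and the groups overlapped. Of the summed TPM of the pair, SLC25A39 held 77.4 to 84.1% in RES, against 69.7 to 79.5% in ADL 1, ADL 2 and ADL 4 and 88.2% in ADL 3.

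SLC25A46, an outer membrane member tied to mitochondrial shape rather than to a substrate, lies on chromosome 5, 106863306 to 106890506, plus strand, 8 exons. In these livers it was at 22.98, 24.5, 21.4 and 20.04 TPM in RES 1 to RES 4, against 35.6, 28.1 and 30.7 TPM in ADL 1, 2 and 4, with 15.8 TPM in ADL 3. RES lay between ADL 3 and the other ADL lambs, with a log2 fold change of -0.25 with SE 0.24 (adjusted p = 0.773, limma) over 8 lambs and of -0.11 without ADL 1. It fell, without ADL 3, by 0.49 on the log2 scale with SE 0.13 (adjusted p = 0.0491, limma), a call lost after rescaling (limma adjusted p = 0.0748). The less known SLC25A43 and SLC25A53 had 3.51 to 4.15 TPM in RES and 3.14 to 6.47 TPM in ADL for the first, and 0.831 to 1.33 TPM in RES and 0.891 to 1.44 TPM in ADL for the second. SLC25A27, a relative of the uncoupling proteins known from brain, had 0.319 to 0.697 TPM in RES and 0.315 to 0.888 TPM in ADL and was not tested.

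**Figure D4:**
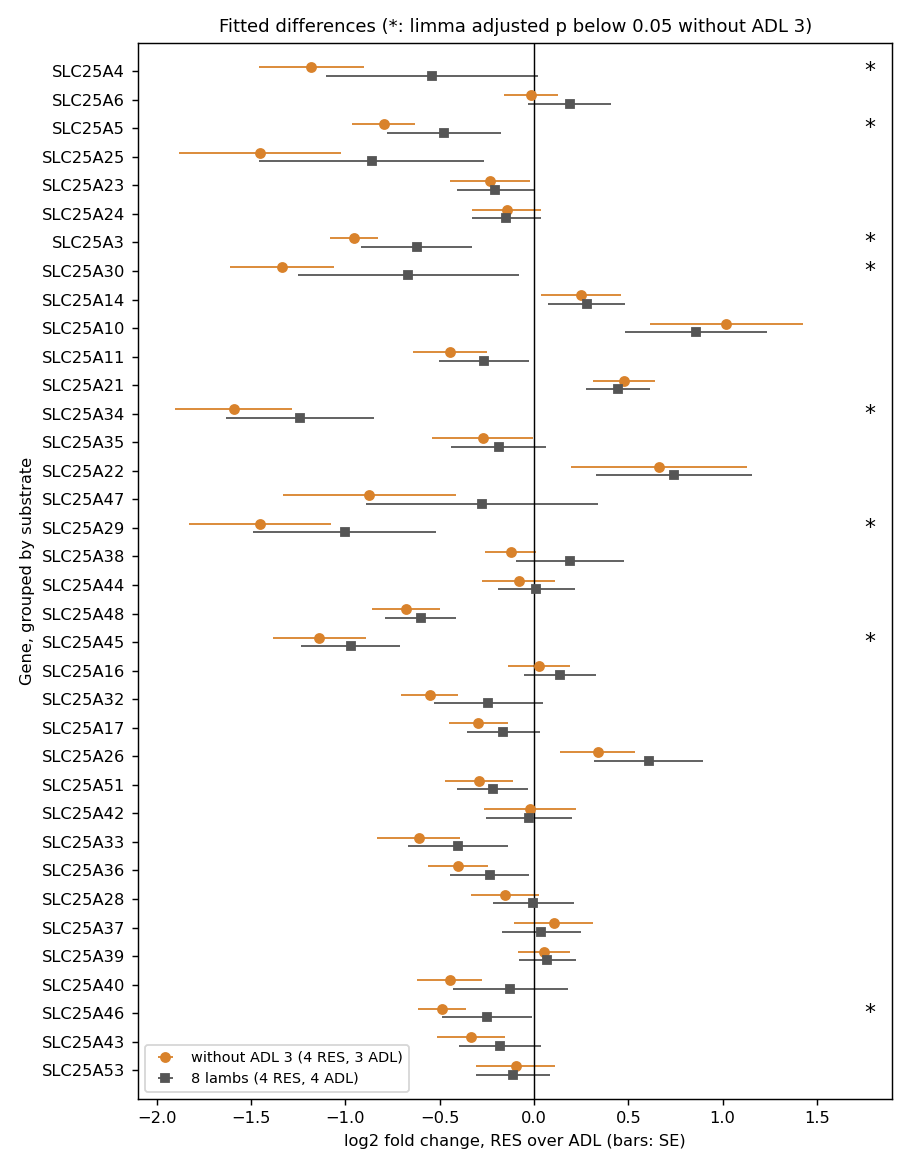
Points give the log2 fold change (RES over ADL) of 36 tested carriers with its SE, squares for all 8 lambs and circles without ADL 3; asterisks mark the 8 carriers with a limma adjusted p below 0.05 without ADL 3. All marked circles lie left of 0, and SLC25A10 lies farthest to the right in both fits.

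Other genes of mitochondrial transport were set beside the carriers. Of 28 tested transporters and channels outside the family, 0 were called with 8 lambs and 3 fell and 0 rose without ADL 3, with a median of -0.14, beside -0.13 for all tested genes. That is 10.7% of the list, near the 7.59% lower and 2.42% higher among all tested genes. VDAC2, a pore of the outer membrane, had 117 to 146 TPM in RES, against 205 to 265 TPM in ADL 1, 2 and 4, with 84.3 TPM in ADL 3. It fell by 0.77 on the log2 scale with SE 0.15 (adjusted p = 0.0222, limma). MCU, the pore of the calcium uniporter, and MTCH1, an outer membrane relative of the carriers, also fell, by 0.61 and 0.57 (limma adjusted p = 0.0469 and 0.0465). The call for MTCH1 was lost after rescaling (limma adjusted p = 0.10998). After rescaling 4 genes of the list were called, in both directions. VDAC2 and MCU still fell, while MPC2 and SFXN2 rose by 0.74 and 0.93 (limma adjusted p = 0.0456 and 0.0486). Of all tested genes, 4.46% were then higher and 3.87% lower. In MTCH1 ADL 3 lay with its group, at 90.6 TPM beside 86.4 to 109 TPM, where RES had 59.2 to 80.2 TPM.

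Carriers reach the inner membrane through the TOM complex and the small TIM chaperones. Of 13 tested genes of this route, 0 were called with 8 lambs, and 3 fell and 0 rose without ADL 3, where 7.59% of all tested genes fell. Their median was -0.46, beside -0.13 for all tested genes. With 8 lambs, 12 of 13 were below 0, against 56.5% of all tested genes. TOMM40, the channel of the TOM complex, had 16.7 to 20.1 TPM in RES, against 33.5 to 34.8 TPM in ADL 1, 2 and 4, with 10.4 TPM in ADL 3. It fell by 0.90 on the log2 scale with SE 0.11 (adjusted p = 0.00469, limma). The receptor TOMM20 and the small subunit TOMM5 fell by 0.77 and 0.71 (limma adjusted p = 0.0229 and 0.0392), of which neither passed after rescaling (0.0727 and 0.0531).

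Enzymes that make or use the carried metabolites were called in both directions without ADL 3, with 4 of 24 tested higher and 5 lower, where 2.42% of all tested genes were higher and 7.59% lower. With 8 lambs 0 were called. GLUD1, which releases ammonia from glutamate in the matrix, had 483 to 662 TPM in RES, against 216 to 253 TPM in ADL 1, 2 and 4, with 548 TPM in ADL 3. It rose by 1.28 on the log2 scale with SE 0.17 (adjusted p = 0.00657, limma). ALDH1L2, a matrix folate enzyme, had 13.95 to 20.4 TPM in RES, against 1.14 to 2.44 TPM in ADL 1, 2 and 4, with 16.3 TPM in ADL 3. It rose by 2.97 on the log2 scale with SE 0.22 (adjusted p = 0.000822, limma). The liver glutaminase GLS2, which makes glutamate in the matrix, had 36.2 to 59.01 TPM in RES, against 128 to 170.4 TPM in ADL 1, 2 and 4, with 25.7 TPM in ADL 3. It fell by 1.65 on the log2 scale with SE 0.19 (adjusted p = 0.00377, limma). The iron-sulfur scaffold ISCU, which uses imported iron, had 67.5 to 79.98 TPM in RES, against 133 to 156 TPM in ADL 1, 2 and 4, with 55.98 TPM in ADL 3. It fell by 0.95 on the log2 scale with SE 0.12 (adjusted p = 0.00516, limma).

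Of 12 tested genes of mitochondrial content and biogenesis, 0 were called with 8 lambs, and 2 fell and 0 rose without ADL 3, where 7.59% of all tested genes fell. Their median was -0.45, beside -0.13 for all tested genes. ESRRA, a nuclear receptor that drives mitochondrial genes, had 18.8 to 26.4 TPM in RES, against 38.5 to 47.9 TPM in ADL 1, 2 and 4, with 17.96 TPM in ADL 3. It fell by 0.98 on the log2 scale with SE 0.15 (adjusted p = 0.01102, limma). TFAM, which packs mitochondrial DNA, had 20.4 to 24.2 TPM in RES, against 30.5 to 34.6 TPM in ADL 1, 2 and 4, with 16.8 TPM in ADL 3. It fell by 0.52 on the log2 scale with SE 0.11 (adjusted p = 0.0322, limma), a call lost after rescaling (limma adjusted p = 0.0698). In both genes RES lay below those 3 ADL lambs and above ADL 3.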

How the data were processed

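Polyadenylated liver RNA was read as pairs, 1 library per lamb, per the labels' protocols. bcl2fastq 1.8.4 and DESeq2 1.12.4 are named in the submitters' processing notes; no source used here gives the aligner, the counter or the build. The deposited TPM values are the authors' reads divided by the listed gene length and scaled per lamb. Per the file headers, the authors' DESeq2 comparison gives a mean normalised signal, a log2 fold change (shrunken) and its SE, a test score and p-values. Deposited TPM times length gave whole reads (100% within 0.001), used for depth and voom only.

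Genes with a mean of at least 1 TPM were fitted with limma 3.58.1 in R 4.3.3 (trended prior, pseudocount 0.5, two-sided, Benjamini-Hochberg over all genes, threshold 0.05), and carriers were read from that fit. Its test on simulated reads had no lamb set apart from its group, so it does not cover the fits without ADL 3. Lamb numbers carry no stated pairing. The carriers and lists, found by symbol, were chosen with earlier results of these data known. Full statistics are given for members called, separated between groups, called in the authors' deposited table or among the 6 most abundant. Other lists name up to 4 called members. Alternatives were other pseudocounts and filters, rescaling, a lamb-number block, a robust prior, age, voom and leaving out each lamb. Rescaling or voom without ADL 3 was added after seeing the data. One tested carrier is not reported here and stays in the fits and counts.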

Additional observations from a re-analysis of the deposited data

Results flagged for a closer look

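Within groups of 4 lambs, 1 lamb stood far from the other 3 in 7 of 84 groups examined, on log2(TPM + 0.5), where chance alone gives about 1 in 20. In ADL 3, SLC25A4 had 129 TPM against 688 to 832 TPM in the other ADL lambs, and SLC25A32 had 10.04 TPM against 23.8 to 25.4 TPM. In RES 4, SLC25A6 had 249 TPM against 311 to 324 TPM in the other RES lambs, SLC25A11 had 34.2 TPM against 40.4 to 41.5 TPM, and SLC25A37 had 17.3 TPM against 10.7 to 11.1 TPM. In RES 3, SLC25A36 had 8.73 TPM against 5.99 to 6.33 TPM, and SLC25A41 had 0.170 TPM against 0.0747 to 0.0878 TPM, a gene with 12 reads over all lambs.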

How the results depend on the processing

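Limits: 4 lambs a group, ADL 3 apart from its group on the first principal component and RES 4 on the second, and levels relative to the library total. The 1 gene called among all genes with 8 lambs was lost (0 called) with median-of-ratios scaling, with no filter on low values and with the lamb number as a replicate block, where 0 carriers were called as well. With each lamb left out in turn, calls over all genes ran from 0 to 1382 and carriers called from 0 to 8, the highest of both without ADL 3. Without RES 4 the calls over all genes were 49 and the carriers called 0. The median log2 fold change of the carriers ran from -0.29 (without ADL 3) to -0.05 (without ADL 1). Without ADL 3, rescaling gave 1150 genes and 5 carriers, and voom 1364 genes and 8 carriers, 7 of them among the 8 called on TPM. Of 13 carriers with full statistics, 2 changed direction: SLC25A47 ran from -0.87 to 0.15 with each lamb left out (0.15 without ADL 1, 0.0084 without RES 4), and SLC25A6 from -0.014 (without ADL 3) to 0.28. The cause was not tested. No pairing of lambs by number is stated. Deviations from group means in same-numbered lambs correlated, across genes, at 0.11, -0.0014, -0.044 and 0.16. Such values cannot show whether the lambs were paired.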
